A study of Mus musculus with 2 samples.

Results

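The 36 genes described here cover the blood and lymphatic endothelium, the pericytes that wrap small vessels, and the platelet-derived growth factor (PDGF) system. They were taken by symbol from the gene tables of RNA sequencing of BALB/c mouse dermal cells, which hold 17431 genes with a read in either library. A listed gene missing from a table has 0 reads there. There were 2 libraries of poly(A) RNA, 1 of fibroblasts from mice at postnatal day 3, cultured in DMEM plus 10% fetal bovine serum, and 1 of skin-derived precursors (SKPs), multipotent dermal cells, from mice aged 4 days. The precursors were cultured in DMEM/F12 with 40 ng/ml FGF2, 20 ng/ml EGF and 2% B27. The labels name no sort or gate for either culture, and cell type, medium, growth factors and age differed together, so they cannot be told apart. Without replicates every difference is one between these libraries, and each interval in parentheses is a 95% exact interval that covers counting error only.

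The fibroblast library had 19084469 and the SKP library 19563021 reads mapped to genes. For a gene 1 kb long, each read adds 0.0543 RPKM (reads per kb of gene length, scaled by the library total) in fibroblasts and 0.0528 in SKPs. Both cultures carried dermal mesenchymal RNA: Col1a2 stood at 2136 RPKM in fibroblasts and 1686 in SKPs, and Vim at 2162 and 1573. The fibroblast markers were not level, however. Of 10 listed, 4 were higher in SKPs and 2 lower, where 12.1% and 6.41% of all expressed genes were (terms defined below). Lum stood at 17.1 RPKM in fibroblasts and 895 in SKPs, and Thy1 at 994 and 313. Of the SKP markers, Nes stood at 28.2 RPKM in SKPs against 6.30, while Sox10 stood at 0.953 against 4.05. Markers of other skin cells were not evenly spread. Mast cell markers summed to 83.2 RPKM in the SKP library and 0.241 in the fibroblast library, macrophage and leukocyte markers to 34.8 and 5.97, keratinocyte markers to 32.7 and 2.88, and smooth muscle and myofibroblast markers to 88.5 and 3208. Adipocyte markers summed to 533 and 352 RPKM, with 5 of 7 higher in SKPs, 1 lower (Lpl) and none at 0 reads in either library, beside the same 12.1% and 6.41%. Lpl alone gave 150 and 321 RPKM of these sums, while Adipoq stood at 35.5 RPKM in SKPs against 0.176. Schwann cell markers summed to 4.43 RPKM in SKPs and 10.5 in fibroblasts. Melanocyte markers summed to 19.7 and 4.87, of which Mitf gave 17.0 and 3.18.

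Endothelial cells line vessels and respond to vascular endothelial growth factors (VEGFs) through the receptors Flt1, Kdr and Flt4, and to angiopoietins through Tek. Growing endothelium secretes PDGF-B, which draws pericytes that carry the receptor Pdgfrb. In skin, dermal fibroblasts carry Pdgfra and Pdgfrb, and PDGF-A from the epithelium and other cells signals to the Pdgfra-positive dermis.

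Pdgfra and Pdgfrb were abundant in both libraries, the ligand genes Pdgfa, Pdgfc and Pdgfd were 2.03-fold to 9.65-fold higher in the fibroblast library, and the endothelial genes Pecam1, Tie1, Emcn and Cldn5 had at most 18 reads in either library. Other endothelial genes had more, such as Kdr with 55 fibroblast and 34 SKP reads and Erg with 1 and 24. A gene was taken as expressed when a library gave it 20 reads or more and an RPKM of 1 or more, and it is called higher or lower when the libraries are at least 2-fold apart and the interval excludes equality. Of the 36 members 35 had a read and 19 were expressed, 15 of these in both libraries, 2 through the SKP library only (Angpt1 and Plvap) and 2 through the fibroblast library only (Flt4 and Fli1). Among the 19 expressed members 3 (15.8%) were higher in SKPs, where 12.1% of all 12053 expressed genes were, and 5 (26.3%) were lower, where 6.41% of all were. The 3 higher members were Angpt1, Plvap and Ndufa4l2, and the 5 lower members were Pdgfa, Pdgfc, Pdgfd, Mcam and Fli1. Angpt1, Plvap and Fli1 passed through 1 library alone, and for such members the filter favours that library. The median log2 ratio (SKP over fibroblast, from RPKM) was 0.25 over the 19 expressed members and -0.0065 over all expressed genes. That median turned to -0.50 over the 13 members at RPKM 5 or more. Just inside the 2-fold limit lay Pdgfa at 2.03-fold, and just outside it lay Vegfc at 1.93-fold and Procr at 1.86-fold.

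**Figure D1:**
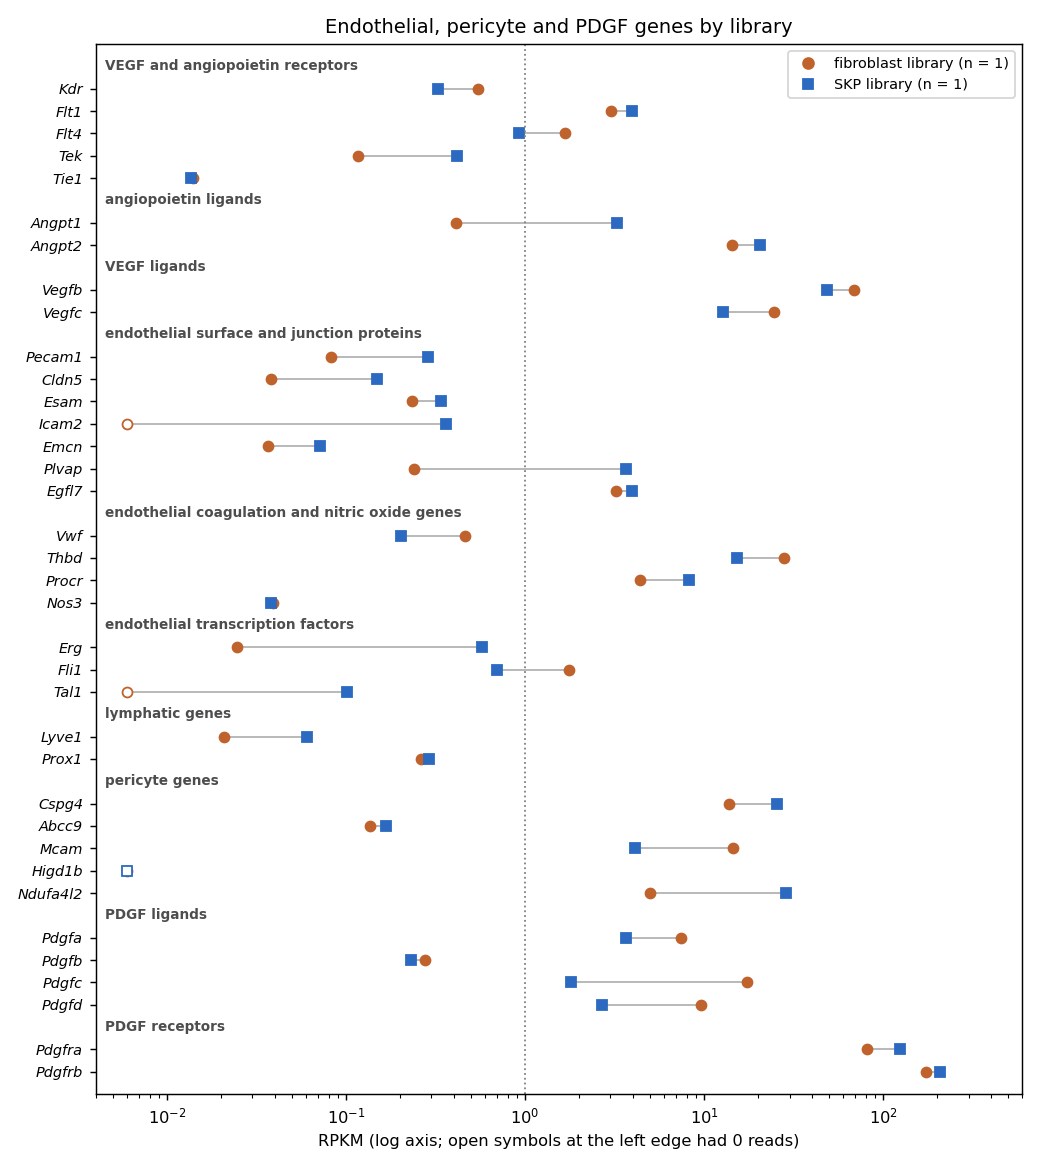
RPKM (log axis) of each of the 36 members in the fibroblast library (circles) and the SKP library (squares), by role, with a dotted line at RPKM 1 and open symbols for 0 reads. Pdgfrb and Pdgfra lie farthest right in both libraries, from 81.4 to 207 RPKM, and most endothelial surface genes lie left of the line.

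The PDGF ligands come as latent or active dimers. PDGF-A binds the alpha receptor, PDGF-B binds both receptors, and PDGF-C and PDGF-D are secreted with an inhibitory CUB domain that proteases must remove. Pdgfc had 1125 reads in the fibroblast library (17.4 RPKM) and 120 in the SKP library (1.80 RPKM), which made it 9.65-fold higher in fibroblasts (7.99 to 11.8). This was the widest gap among the members called lower in SKPs. Pdgfd, whose product signals mainly through the beta receptor, had 319 reads (9.66 RPKM) against 92 in SKPs (2.70 RPKM), a 3.57-fold difference (2.82 to 4.55). Pdgfa had 140 reads (7.46 RPKM) against 71 in SKPs (3.68 RPKM) and was 2.03-fold higher in fibroblasts (1.52 to 2.74), an interval that reaches below 2-fold. On the log2(RPKM + 1) scale its difference was -0.86, under 2-fold. Pdgfb, the endothelial ligand, stayed below the expression filter with 15 fibroblast reads (0.276 RPKM) and 13 SKP reads (0.232 RPKM). Its ratio of 1.19 in favour of fibroblasts had an interval of 0.527 to 2.71 that includes equality.

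Summed over the 4 ligands, the level was 34.8 RPKM in fibroblasts and 8.42 in SKPs, 4.13-fold lower in SKPs. The make-up of that sum differed as well. Pdgfc gave 50.01% of the ligand RPKM in fibroblasts and 21.4% in SKPs, whereas Pdgfa gave 21.5% in fibroblasts and 43.7% in SKPs. Pdgfd gave 27.7% and 32.1%, and Pdgfb 0.792% and 2.76%. Pdgfc was thus the leading ligand transcript in fibroblasts, at 1.80 times the RPKM of Pdgfd (1.59 to 2.05). In SKPs Pdgfa stood at 1.36 times Pdgfd (0.983 to 1.87), an interval that includes equality, so these are not put in order.

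The receptors went the other way or were nearly level. Pdgfra, the alpha receptor that marks dermal fibroblast lineages and early glial progenitors, had 9846 reads in fibroblasts (81.4 RPKM) and 15525 in SKPs (125 RPKM). It was 1.53-fold higher in SKPs (1.49 to 1.57), a gap beyond counting error and under the 2-fold limit. Pdgfrb, the beta receptor of pericytes and fibroblasts, had 17346 reads (174 RPKM) against 21191 in SKPs (207 RPKM), 1.19-fold higher in SKPs (1.16 to 1.21). By RPKM it was place 341 among the 12053 expressed genes in fibroblasts and place 272 in SKPs, and Pdgfra was place 833 and place 487.

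Within a library the beta receptor exceeded the alpha receptor 2.14-fold in fibroblasts (2.09 to 2.19) and 1.66-fold in SKPs (1.62 to 1.69), on the RPKM scale. Pdgfra exceeded its ligand gene Pdgfc 4.68-fold in fibroblasts (4.40 to 4.98) and 69.2-fold in SKPs (57.8 to 83.5). For the other alpha ligand, Pdgfa, the excess of Pdgfra was 10.9-fold (9.23 to 13.0) and 33.9-fold (26.9 to 43.4). Pdgfrb exceeded Pdgfd 18.03-fold in fibroblasts (16.1 to 20.2) and 76.4-fold in SKPs (62.3 to 94.8). Receptor RNA therefore outweighed ligand RNA in both libraries, and by a wider margin in SKPs for each of these pairs.

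**Figure D2:**
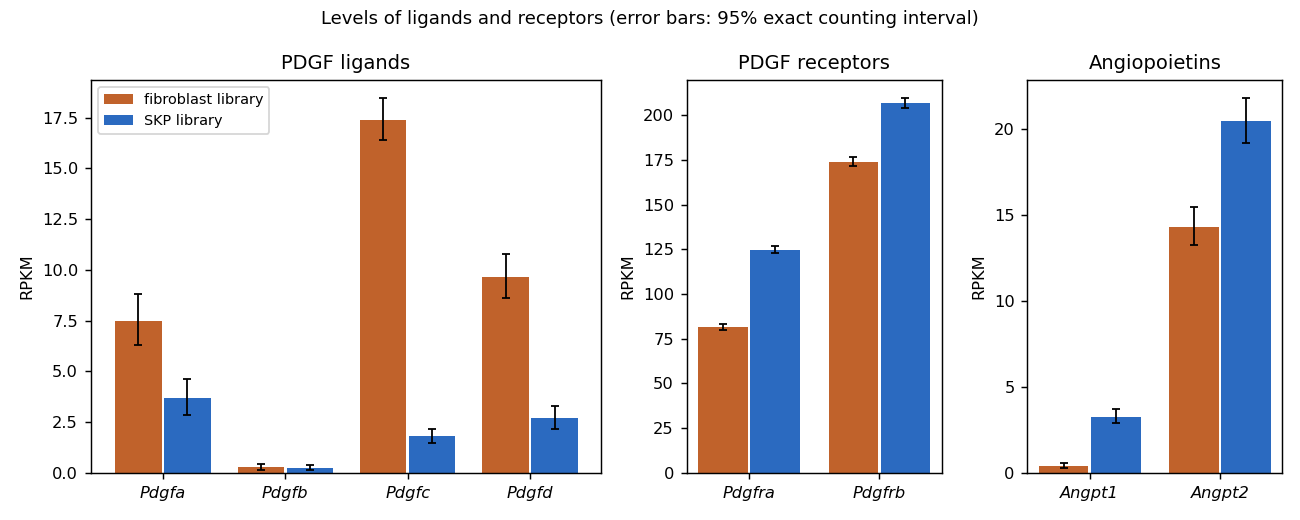
RPKM of the PDGF ligands, the PDGF receptors and the angiopoietins in the fibroblast and SKP libraries (1 library each), with 95% exact counting intervals as error bars and a linear axis from 0 in each panel. Pdgfc stands at 17.4 RPKM in fibroblasts and 1.80 in SKPs, while Pdgfra stands at 81.4 and 125 RPKM and Angpt1 at 0.413 and 3.27.

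Promoter sequences show how unlike the start regions of these genes are. Shown are the 250 bases before the most upstream RefSeq start (build GRCm38.p6) of the ligand genes that were lower in SKPs and of Mcam, which was lower with them, and of Pdgfra for contrast. Capitals mark matches on either strand to the SP1 box GGGCGG, the ETS letters CGGAAG, the TATA letters TATAAA, the EGR1 letters GCGGGGGCG, which can overlap an SP1 box, or the hypoxia-factor core ACGTG. The windows lie at chr5:138994945-138995194 (minus strand) for Pdgfa, chr3:81036166-81036415 (plus) for Pdgfc, chr9:6168236-6168485 (plus) for Pdgfd, chr9:44134408-44134657 (plus) for Mcam and chr5:75152001-75152250 (plus) for Pdgfra.
Pdgfa: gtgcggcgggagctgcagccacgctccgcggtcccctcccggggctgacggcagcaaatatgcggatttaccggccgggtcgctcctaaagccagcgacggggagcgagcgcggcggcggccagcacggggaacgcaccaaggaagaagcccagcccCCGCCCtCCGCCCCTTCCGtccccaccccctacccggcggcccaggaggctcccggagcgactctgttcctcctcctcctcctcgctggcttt
Pdgfc: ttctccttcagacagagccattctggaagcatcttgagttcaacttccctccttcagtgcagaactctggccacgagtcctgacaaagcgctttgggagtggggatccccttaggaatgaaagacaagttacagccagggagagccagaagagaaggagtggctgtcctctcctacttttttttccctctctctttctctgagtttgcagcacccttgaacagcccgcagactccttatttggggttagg
Pdgfd: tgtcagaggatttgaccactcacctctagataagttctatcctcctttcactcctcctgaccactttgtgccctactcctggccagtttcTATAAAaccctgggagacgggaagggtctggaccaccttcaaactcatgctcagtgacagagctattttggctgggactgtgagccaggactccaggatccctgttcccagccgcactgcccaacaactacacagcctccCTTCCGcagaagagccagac
Mcam: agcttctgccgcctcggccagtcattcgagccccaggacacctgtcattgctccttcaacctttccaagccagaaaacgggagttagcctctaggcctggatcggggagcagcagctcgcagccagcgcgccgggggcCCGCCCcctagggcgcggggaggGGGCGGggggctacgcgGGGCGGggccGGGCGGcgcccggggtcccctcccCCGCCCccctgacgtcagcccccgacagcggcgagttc
Pdgfra: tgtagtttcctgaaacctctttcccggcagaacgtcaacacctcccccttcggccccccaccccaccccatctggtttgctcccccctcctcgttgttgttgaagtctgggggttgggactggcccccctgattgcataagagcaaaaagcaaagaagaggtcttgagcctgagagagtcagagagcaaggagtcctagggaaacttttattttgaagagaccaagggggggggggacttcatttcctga
Pdgfa held 2 SP1 boxes and 1 ETS match with 72.4% G and C, and Mcam held 5 SP1 boxes with 73.6% G and C. Pdgfd held 1 TATA and 1 ETS match at 53.6% G and C, while Pdgfc (50.8%) and Pdgfra (54.4%) held none of the 5 motifs. The median promoter of all 27025 genes with an entry had 52% G and C. Entries were found for 21 of the 36 members. The SP1 box was present in 12 of these 21 (57.1%) and in 33.0% of all promoters, the ETS letters in 4 of 21 and 13.8%, the TATA letters in 3 of 21 and 13.0%, the EGR1 letters in 2 of 21 and 2.55%, and the hypoxia-factor core in 0 of 21 and 16.5%. The 3 lower ligand genes thus had no motif of this set in common. A match describes letters in this window and is not a measured site.

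The VEGF ligand genes Vegfb and Vegfc were expressed in both cultures, at higher levels in fibroblasts. Vegfb, whose product binds Flt1, had 1633 reads in fibroblasts (68.4 RPKM) and 1188 in SKPs (48.3 RPKM), a 1.42-fold difference (1.31 to 1.53). Vegfc, the lymphatic growth factor that binds Flt4, had 851 reads (24.6 RPKM) against 454 (12.7 RPKM), 1.93-fold higher in fibroblasts (1.72 to 2.17). Both gaps exceeded counting error, and neither reached 2-fold. Other ligand genes of the family, named after their values were seen, went both ways. Vegfa, the main ligand of Kdr, had 3624 reads in fibroblasts (55.5 RPKM) and 1724 in SKPs (25.6 RPKM), 2.16-fold higher in fibroblasts (2.04 to 2.29). Figf, which encodes VEGF-D, had 759 reads (21.8 RPKM) against 1307 (36.5 RPKM), 1.67-fold higher in SKPs (1.53 to 1.83).

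The angiopoietins favoured SKPs. Angpt1, the agonist of Tek that mural and mesenchymal cells secrete, had 31 reads in fibroblasts (0.413 RPKM) and 253 in SKPs (3.27 RPKM) and was 7.93-fold higher in SKPs (5.45 to 11.9). Angpt2, its context-dependent antagonist, had 652 reads (14.3 RPKM) against 958 (20.4 RPKM), 1.43-fold higher in SKPs (1.29 to 1.58). Angpt2 was the more abundant transcript in both libraries. It exceeded Angpt1 by 34.7-fold in fibroblasts (24.2 to 51.4) and by 6.24-fold in SKPs (5.43 to 7.19), on the RPKM scale. In RefSeq Angpt2 overlaps Mcph1, which had 324 fibroblast and 335 SKP reads. The part of shared reads in the Angpt2 count was not tested.

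Receptors for these ligands were low. Flt1, which binds VEGF tightly and also occurs in a soluble form, had 350 reads in fibroblasts (3.03 RPKM) and 469 in SKPs (3.94 RPKM), 1.30-fold higher in SKPs (1.13 to 1.50). Flt4, the receptor of VEGF-C, had 181 reads (1.68 RPKM) against 103 (0.929 RPKM), 1.81-fold higher in fibroblasts (1.41 to 2.33). Kdr, the main signalling receptor of endothelium, lay below the filter with 55 fibroblast reads (0.547 RPKM) and 34 SKP reads (0.328 RPKM). Tek, the angiopoietin receptor, also lay below it, with 10 reads (0.117 RPKM) against 37 (0.420 RPKM), a ratio of 3.59 in favour of SKPs (1.75 to 8.10). Tie1, the partner of Tek, had 1 read in each library. The ligands Vegfb, Vegfc and Angpt2 were therefore at higher RPKM than any of the 5 receptors in either library.

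**Figure D3:**
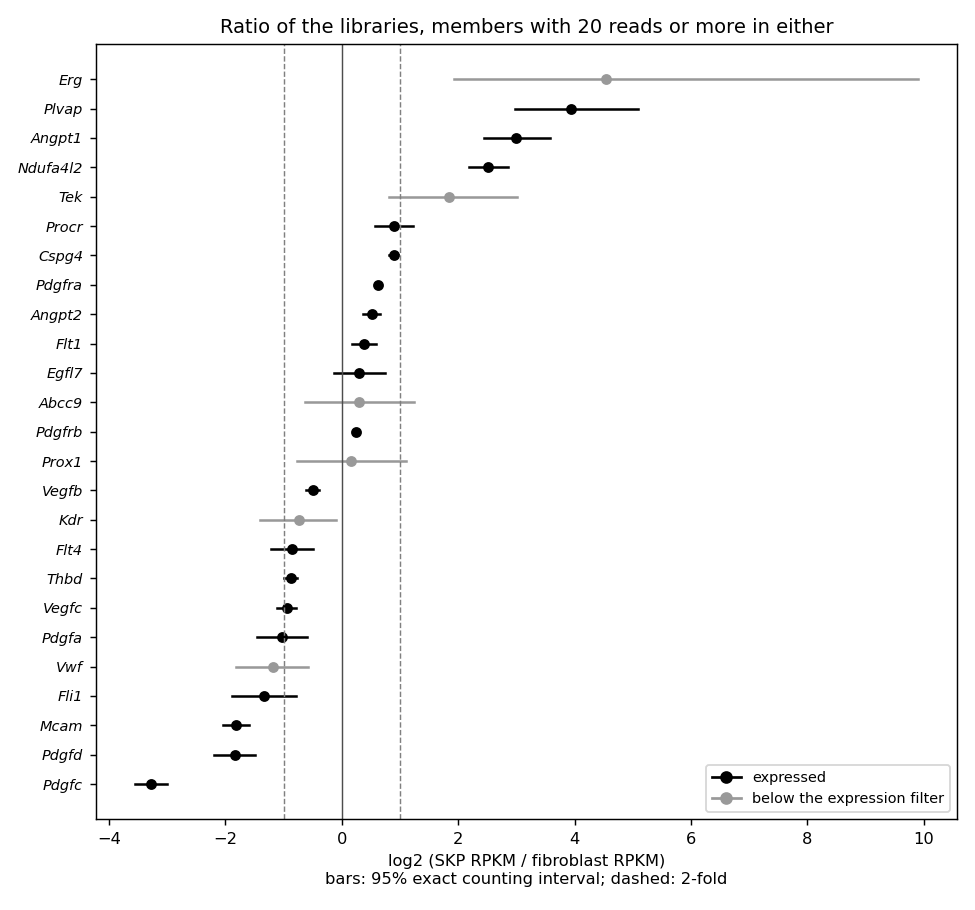
Log2 ratio of SKP over fibroblast RPKM with its 95% exact counting interval for the 25 members with 20 reads or more in either library, sorted, with dashed lines at 2-fold and grey for members below the expression filter. Of the expressed members Plvap, Angpt1 and Ndufa4l2 lie past 2-fold on the SKP side, and Pdgfc, at -3.27, lies farthest out on the fibroblast side. Below the filter, Erg (4.54) and Tek (1.85) also lie past 2-fold on the SKP side, and Vwf (-1.18) on the fibroblast side.

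Of the 21 endothelial and lymphatic members, which include the receptors above, 7 were expressed, 1 of them higher in SKPs (Plvap), 1 lower (Fli1) and 5 neither, beside 12.1% higher and 6.41% lower over all expressed genes. Another 9 had under 20 reads in both libraries. Plvap and Fli1 each passed through 1 library alone, and the filter favours that direction. Most junction and surface protein genes had few reads. Pecam1, the adhesion molecule CD31 used as a marker of endothelium, had 5 fibroblast reads (0.0822 RPKM) and 18 SKP reads (0.287 RPKM), a ratio of 3.50 (1.25 to 12.05). Cldn5, the tight junction protein of vessels, had 1 and 4 reads, Emcn, an endothelial sialomucin, had 1 and 2, and Esam, an endothelial adhesion molecule, had 8 and 12. Icam2, an endothelial ligand of leukocyte integrins, had 8 SKP reads and 0 fibroblast reads. In fibroblasts 3 reads would be 0.140 RPKM, and the exact upper limit was 0.172 RPKM. With 3 reads put in place of the 0, the Icam2 ratio was 2.59 in favour of SKPs, and its exact lower limit was 1.66. In RNA from whole cultures, fewer cells of a type and less RNA per cell cannot be told apart.

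Plvap stood apart from these genes. Plvap, which forms the diaphragms of fenestrated endothelium, had 9 reads in fibroblasts (0.241 RPKM) and 142 in SKPs (3.69 RPKM) and was 15.3-fold higher in SKPs (7.85 to 34.2). It had 142 SKP reads where Pecam1 had 18 and Tie1 had 1. Egfl7, a secreted endothelial protein gene that hosts a microRNA, had 82 reads (3.21 RPKM) against 104 (3.95 RPKM), with a ratio of 1.23 (0.913 to 1.67) that includes equality.

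Deposited coverage, the percent of a gene's length under reads, gave a second readout. In the SKP library 142 evenly spread reads of 49 bases would cover 96.7% of the Plvap length, and the deposited coverage was 53.5%. The quotient of these, 0.553, was reached or undercut by 3.00% of 11911 expressed genes with at least 20 SKP reads, whose median was 0.927. For the other members called higher or lower, the SKP quotient lay between 0.797 (Pdgfd) and 0.976 (Pdgfa). The SKP reads of Plvap therefore left more of its length bare than those of the other called members did. In the mouse RefSeq table Plvap overlaps Gtpbp3, which had 294 fibroblast and 374 SKP reads, and the part of shared reads in the Plvap count was not tested.

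**Figure D4:**
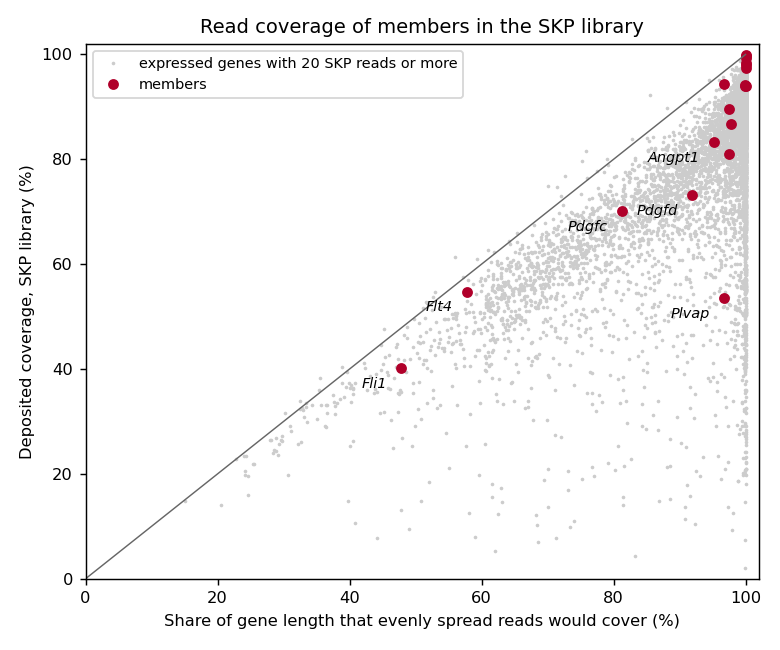
Deposited coverage in the SKP library against the percent of length that the same number of evenly spread reads would cover, for expressed genes with 20 SKP reads or more (grey) and members among them (red), with the line of equality. Plvap lies at 53.5% against 96.7%, below the other members at like read number.

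The genes of coagulation control and nitric oxide divided. Thbd, the thrombin receptor thrombomodulin, had 1922 reads in fibroblasts (28.1 RPKM) and 1077 in SKPs (15.3 RPKM), 1.84-fold higher in fibroblasts (1.70 to 1.98). Procr, the protein C receptor that acts beside it, went the other way with 122 reads (4.41 RPKM) against 234 (8.21 RPKM), 1.86-fold higher in SKPs (1.49 to 2.34). Thbd was thus the most abundant of the 21 endothelial members in both libraries. Vwf, the clotting factor stored by endothelium, had 75 reads (0.461 RPKM) against 34 (0.203 RPKM), below the filter, with a ratio of 2.27 in favour of fibroblasts (1.50 to 3.51). Nos3, the endothelial nitric oxide synthase, had 3 reads in each library.

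Transcription factors of the endothelial and blood lineages also differed in direction. Fli1, an ETS factor of endothelium, blood cells and some mesenchyme, had 100 reads in fibroblasts (1.76 RPKM) and 41 in SKPs (0.701 RPKM), 2.51-fold higher in fibroblasts (1.73 to 3.71). On the log2(RPKM + 1) scale it differed by -0.70, under 2-fold. Erg, its close relative and a marker of endothelium, had 1 read (0.0245 RPKM) against 24 (0.572 RPKM), a ratio of 23.3 in favour of SKPs (3.80 to 959) below the filter. Tal1, a factor of blood and endothelial progenitors, had 0 fibroblast and 8 SKP reads, a ratio of 2.59 in favour of SKPs with 3 reads for the 0 (exact lower limit 1.66). Of the lymphatic genes, the hyaluronan receptor gene Lyve1 had 1 and 3 reads and the homeobox gene Prox1 had 20 (0.262 RPKM) and 23 (0.293 RPKM). Neither lymphatic gene passed the filter.

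Without the filter on low values, 6 of the 21 endothelial members were called higher in SKPs (Plvap, Pecam1, Tek, Erg, Icam2 and Tal1), where 12.6% of 17431 genes were, and 2 were lower (Vwf and Fli1), where 6.22% were. Apart from Plvap, the highest SKP level among these 6 genes was 0.572 RPKM, for Erg. Macrophage and leukocyte markers moved with them: 10 of 12 were higher in SKPs and 0 lower without the filter, and in the fibroblast library Emr1 and Cd52 had 0 reads and Ptprc had 2. Mast cell markers did so too, with 6 of 8 higher, 0 lower, and Cpa3, Mcpt4 and Fcer1a at 0 fibroblast reads. Pecam1, Erg, Tal1 and Icam2 are also expressed by some blood cells, and the part of these cells in the result was not tested.

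Pericyte genes gave a mixed picture. Cspg4, the proteoglycan NG2 of pericytes and glial progenitors, had 2043 reads in fibroblasts (13.8 RPKM) and 3897 in SKPs (25.5 RPKM) and was 1.85-fold higher in SKPs (1.76 to 1.96). Mcam, the adhesion molecule CD146, had 769 reads (14.4 RPKM) against 225 (4.11 RPKM), 3.52-fold higher in fibroblasts (3.03 to 4.10). Ndufa4l2, a mitochondrial protein gene that hypoxia induces and that is enriched in pericytes, had 91 reads (5.01 RPKM) against 535 (28.6 RPKM), 5.71-fold higher in SKPs (4.57 to 7.21). The markers held to be most specific to pericytes had few or no counted reads. Abcc9, a subunit of ATP-sensitive potassium channels, had 19 reads (0.137 RPKM) and 24 (0.168 RPKM). Higd1b had no entry in either library and was counted as 0 reads, under the floor of 3 reads. Whether the annotation held Higd1b cannot be told. Cspg4, Mcam and Ndufa4l2 were thus expressed in both libraries. Abcc9 passed the filter in neither, and Higd1b had no reads to pass it.

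Ndufa4l2 overlaps Shmt2 in the RefSeq table, and Shmt2 had 4667 fibroblast reads and 4167 SKP reads. The part of shared reads in the Ndufa4l2 count was not tested. The smooth muscle and myofibroblast markers moved with Mcam: 7 of 8 were lower in SKPs, where 6.41% of all expressed genes were. None of the 8 had 0 reads in either library, and Acta2 stood at 1953 RPKM against 41.0. Des was the member of that list that was higher in SKPs. The part of contractile cells in the Mcam difference was not tested.

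**Figure D5:**
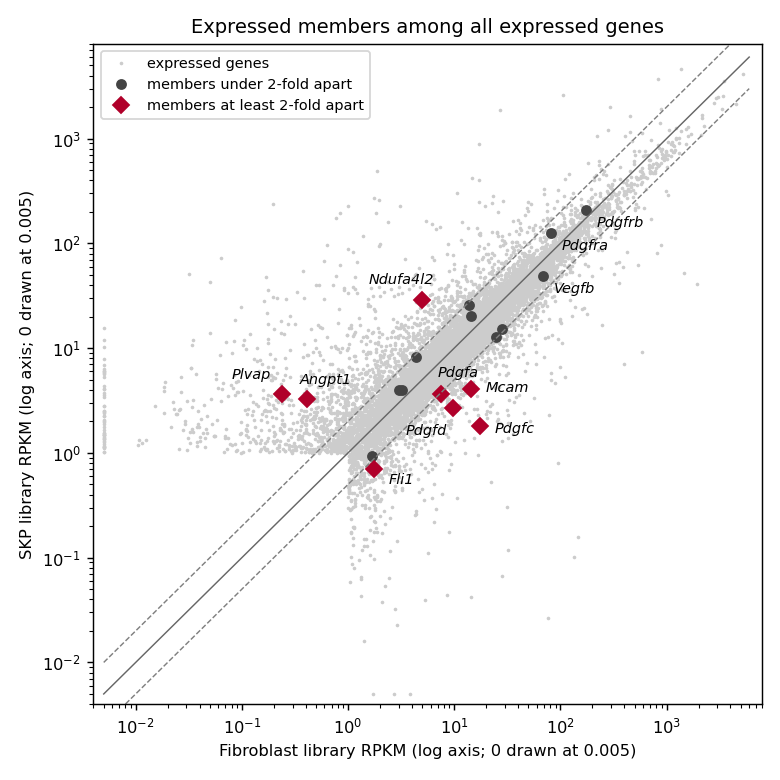
SKP against fibroblast RPKM (both axes log, 0 drawn at 0.005) for all 12053 expressed genes (grey) and the 19 expressed members, with red diamonds for members at least 2-fold apart and dashed lines at 2-fold. The 5 members on the fibroblast side hold 3 PDGF ligand genes, and Pdgfra and Pdgfrb lie near the upper end of the diagonal.

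Other endothelial genes were examined as a list of 35, of which 15 were expressed. Of these 11 were higher in SKPs, 0 lower and 4 neither, and the median log2 ratio was 3.44, beside 12.1% higher, 6.41% lower and a median of -0.0065 over all expressed genes. Only 8 of the 15 reached RPKM 1 in fibroblasts, and for members that passed through the SKP library alone the filter favours that direction. Without it 17 of 34 genes with a read were higher and 2 lower, where 12.6% and 6.22% of 17431 genes were. The largest gaps were in Sparcl1, a matricellular protein gene also used by mesenchyme, at 1.77 RPKM against 272 in SKPs (154-fold, 126 to 188), and Sox7, a SOXF factor, at 0.250 RPKM against 13.8 (55.2-fold, 33.3 to 99.1). Apln, the peptide ligand of the apelin receptor, stood at 1.66 RPKM against 37.3 (22.5-fold, 18.4 to 28.0), and Clec14a, an endothelial lectin-like protein gene, at 2.55 against 36.3 (14.2-fold, 12.4 to 16.4). Eng, the TGF-beta coreceptor endoglin, stood at 47.9 RPKM against 49.98 (1.04-fold, 0.993 to 1.10).

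Genes picked after their values were seen show how uneven this list was. Cdh5, the junctional cadherin of endothelium, had 58 reads in fibroblasts (0.787 RPKM) and 271 in SKPs (3.57 RPKM), 4.54-fold higher there (3.41 to 6.14). Robo4 had 0 and 2 reads, Dll4 had 2 and 2, and Sox17, with no entry in either library, was counted as 0 reads. The 2 genes lower in SKPs without the filter were Ptprb, a phosphatase that restrains Tek, with 89 fibroblast and 14 SKP reads, and Mmrn2, with 19 and 5. Several endothelium-associated transcripts were therefore well above the filter in SKPs while Pecam1, Tie1, Emcn, Cldn5 and Robo4 were at 18 reads or fewer. The summed mast cell, leukocyte, keratinocyte, adipocyte and melanocyte markers given at the start were higher in the same library. The summed Schwann cell markers and the smooth muscle and myofibroblast markers were lower there. The part of these cells in this list and in the next was not tested.

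Of 18 other pericyte and mural cell genes 12 were expressed, with 7 higher in SKPs, 1 lower (the forkhead gene Foxf2, 3.64-fold, 1.94 to 7.35) and 4 neither, and a median of 1.52, beside 12.1% higher and 6.41% lower over all expressed genes. Some passed through 1 library alone, such as Enpep through SKPs and Foxf2 through fibroblasts, and for these the filter favours that library. Without it 7 of 18 were higher and 2 lower, where 12.6% and 6.22% of 17431 genes were. Ednra, the endothelin receptor, stood at 13.6 RPKM against 140 in SKPs (10.3-fold, 9.66 to 11.1), and the aminopeptidase gene Anpep at 17.4 against 119 (6.86-fold, 6.44 to 7.31). The related peptidase gene Enpep had 3 fibroblast and 202 SKP reads (65.4-fold, 22.1 to 320), and Lamc3, a laminin chain gene, 26 and 267 (9.97-fold, 6.66 to 15.6). Rgs5 and Kcnj8, much used to define pericytes, are named after their values were seen. Rgs5 had 5 reads in fibroblasts (0.150 RPKM) and 37 in SKPs (1.08 RPKM), just past the filter, and was 7.19-fold higher in SKPs (2.82 to 23.4). Kcnj8 had 3 and 4 reads.

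All 12 other genes of the VEGF and angiopoietin pathways were expressed, with 5 higher in SKPs, 1 lower (Vegfa, given above) and 6 neither, and a median of 0.85, where 12.1% of all expressed genes were higher and 6.41% lower. Nrp1, a coreceptor of VEGF and semaphorins, stood at 17.5 RPKM against 47.6 in SKPs (2.71-fold, 2.57 to 2.86), and Pgf, the placental growth factor that binds Flt1, at 1.19 against 4.22 (3.55-fold, 2.43 to 5.32). Ccbe1, which promotes processing of VEGF-C, stood at 1.94 RPKM against 14.1 (7.28-fold, 6.29 to 8.47). Vegfc itself was 1.93-fold higher in fibroblasts, opposite to Ccbe1. Angptl4, a lipase inhibitor gene of the angiopoietin-like family, was 9.23-fold higher in SKPs (8.20 to 10.4), Emilin1 2.29-fold (2.18 to 2.41), and Angptl2 was under 2-fold apart at 106 RPKM against 124 (1.16-fold, 1.13 to 1.20).

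Among 19 genes of PDGF processing and signal transduction 18 were expressed, with 5 higher in SKPs, 0 lower and 13 neither, and a median of 0.21, where 12.1% of all expressed genes were higher and 6.41% lower. Plau, the urokinase gene whose product can activate PDGF-D, stood at 14.7 RPKM in fibroblasts and 421 in SKPs (28.6-fold, 26.4 to 31.0). Plat, the tissue plasminogen activator gene whose product can activate PDGF-C, was at 59.8 RPKM against 74.7 (1.25-fold, 1.19 to 1.31) and is named after its value was seen. Lrp1, an endocytic receptor that associates with Pdgfrb, stood at 132 RPKM against 303 (2.29-fold, 2.27 to 2.32). Cbl, a ubiquitin ligase for activated receptors, was 2.20-fold higher in SKPs (1.93 to 2.51), Rasa1, a Ras GTPase activator recruited by Pdgfrb, 2.03-fold (1.94 to 2.13), and the sphingosine kinase gene Sphk1 2.21-fold (1.92 to 2.54).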

How the data were processed

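Poly(A) RNA of 2 cultures was sequenced, 1 library per group, with groups taken from the cell type in the labels. Each gene has a deposited raw count of reads, unnormalized, and the deposited RPKM scales it by gene length and the library total, per the file headers. Deposited coverage is in percent of gene length, per the file headers. The authors' deposited comparison table gives log2 ratios of fibroblast over SKP RPKM, p-values and FDR (q-values) from an unnamed test. The submitters' processing notes name mm9 as the build. Strandedness, aligner, annotation and counter were not given in the sources used here, so overlapping genes were not separated and no gene coordinates are printed. Reads were 49 bases long, 81.65% and 85.13% mapped to genes, and 19.69% and 21.69% matched several positions.

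Ratios with 95% Clopper-Pearson intervals were computed with scipy 1.17.1, numpy 2.4.6 and pandas 2.3.3 under Python 3.11.15; figures used matplotlib 3.10.9. The calls were tested on simulated counts that held counting error alone, with genes 4-fold apart or equal. Calls at the 2-fold limit and variation between cultures were not covered. Reads copied by PCR are not separate molecules, and intervals and floors reflect counting error alone. A count of 0 was set to a floor of 3 reads. Each cell type has 1 library, so there was no test between them, no count model and no leaving out of libraries. The members and lists were chosen with earlier results of these data known. All 36 members are named, and from each pathway list up to 4 expressed genes by the interval limit nearest to equality and up to 2 by RPKM; others named were chosen after their values were seen. Even coverage assumed reads placed at random along the gene. Promoters are from RefSeq (GRCm38.p6), and overlaps of genes from the RefSeq table of that assembly. Alternatives changed the scaling, the filter, the fold and the pseudocount.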

Additional observations from a re-analysis of the deposited data

How the results depend on the processing

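The count of 3 of 19 members higher in SKPs was 8 of 35 without a filter on low values, where 12.6% of all genes were higher. It was 1 of 13 at RPKM 5 or more, where 9.23% of all were. In the authors' deposited table it was 5 of 35 at an FDR of at most 0.001 (which adds Erg and Tek), and the share over all genes was not computed there. The count of 5 of 19 members lower in SKPs was 3 on the log2(RPKM + 1) scale, where 4.21% of all expressed genes were lower. On that scale Pdgfa (-0.86) and Fli1 (-0.70) were under 2-fold. At 4-fold it was 1 (Pdgfc), where 2.00% of all were lower. The median of 0.25 over expressed members turned to -0.50 at RPKM 5 or more, where fewer genes enter. Median-ratio and upper-quartile scaling shifted log2 ratios by 0.0080 and -0.046, and under each all 19 expressed members kept their direction and their side of the 2-fold limit. For the lists of other genes, alternatives were chosen after seeing the data. The 11 higher and 0 lower endothelial genes became 17 and 2 without the filter, where 12.6% of all genes were higher and 6.22% lower. The 1 lower pericyte gene became 2 with upper-quartile scaling, 2 without the filter and 0 on the log2(RPKM + 1) scale, and the 5 higher PDGF processing and signalling genes became 3 on that scale. Except where an alternative itself changes the genes tested, the cause was not tested. No paired analysis was possible because each group has 1 library. Members under 20 reads have intervals too wide to rank.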
